A study of Homo sapiens with 9 samples.

Results

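The genes described here encode the enzymes that build purine and pyrimidine nucleotides, together with enzymes that salvage them, reduce them to deoxynucleotides and phosphorylate them. Their 37 members were taken by name from the count table, whose Ensembl gene IDs were matched without version number, by a list that rests on their function. That list was drawn up with earlier results of these data known. All 37 members were found among the 60604 genes used, and all 37 were among the 19473 genes that passed the expression filter and were tested. RNA was measured in 3 libraries each of TC4-2A, TL4-2A and T-REx control cells. TC4-2A is a stable HEK293-derived line (HEK293 is a human embryonic kidney line) with an inducible transgene that makes a circular RNA of early exons of SMN1 and SMN2. TL4-2A is a line of the same origin whose inducible transgene makes a linear RNA of the same exons, and T-REx is the parental line without such a transgene. All 3 lines, the control included, were kept in Dox, the inducer, for 96 h. Whether each derived line is a clone or a pool, and whether its 3 libraries stem from different cultures, is not given in the sources used here, so the p-values measure the spread between these libraries only, which may be technical.

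Purine synthesis starts from phosphoribosyl pyrophosphate (PRPP) and builds the ring on the sugar until inosine monophosphate (IMP) is reached, from which AMP and GMP are made. Pyrimidine synthesis builds the ring first, as orotate, and joins it to PRPP to give UMP, from which CTP is made. Ribonucleotide reductase turns ribonucleotides into deoxynucleotides for DNA, thymidylate synthase makes the thymine nucleotide, and salvage enzymes return free bases and nucleosides to the pool. Proliferating cells rely on synthesis from small precursors, several of its genes are known targets of MYC, and genes of the deoxynucleotide branch are known targets of E2F factors in S phase.

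Library totals ranged between 16561680 and 21491977 counts. Values below are CPM (read counts scaled to a common library size) after TMM scaling, and log2 fold changes and adjusted p-values come from edgeR's quasi-likelihood test with Benjamini-Hochberg adjustment over all 19473 genes tested. A gene is called higher or lower at an adjusted p under 0.05. SMN1 and SMN2 together had 94.7 ± 2.99 CPM in the TC4-2A line, 62.4 ± 1.49 CPM in the TL4-2A line and 54.8 ± 1.08 CPM in the T-REx control (SD, n = 3 each). The transgenes carry exons of these genes, so their reads may be counted here. How reads that fit both genes were counted is not given in the sources used here. These values therefore do not give the level of the cells' own SMN1 and SMN2 transcripts. All 7 genes of a HEK293 list were tested, with a summed level between 866 and 1139 CPM. VIM had the highest of these levels (455 to 576 CPM), and NEFM (1.29 to 2.92 CPM) and PAX2 (6.42 to 9.44 CPM) the lowest. The 12 markers of blood, endothelium, liver, fibroblasts and muscle summed to between 0.583 and 1.34 CPM per library, and of these only DES passed the expression filter. In bulk RNA, fewer cells in a given state and less RNA per cell cannot be told apart.

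The promoter sequences below show the stretches that bear on how the members are arranged and which motifs lie at their starts. They were read from RefSeq on GRCh38.p14, where 34 of the 37 members had a window of 250 bases before and 50 bases after the start. PPAT and PAICS, which encode the first enzyme of purine synthesis and a later enzyme that carries out a pair of steps, lie head to head on chromosome 4, and the 136 bases between their RefSeq starts (chr4:56435616-56435751, read on the strand of PAICS) serve both directions.
PPAT-PAICS: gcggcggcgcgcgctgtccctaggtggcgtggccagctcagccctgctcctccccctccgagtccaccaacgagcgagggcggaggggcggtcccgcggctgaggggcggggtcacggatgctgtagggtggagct
The 100 bases before the start of CAD (chr2:27217269-27217368, plus strand) are shown since CAD rose in both lines while the median of its neighbours stayed near 0.
CAD: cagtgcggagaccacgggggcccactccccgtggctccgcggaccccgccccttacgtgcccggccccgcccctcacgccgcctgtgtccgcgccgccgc

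Motifs were searched on both strands of these windows: the E-box CACGTG, which MYC and related factors can bind, and TTCCCGC and TTGGCGC, cores of sites that E2F factors can bind. A match is a description of letters and not a bound site. An E-box was found in 6 of 34 members (17.6%), namely ATIC, DCK, DHODH, NME1, PAICS and PPAT, and in 8.77% of the 27305 genes with a window. The matches of PPAT and PAICS are the same 6 bases (chr4:56435792-56435797) and are counted for both genes. At least 1 of the E2F cores was found in 9 of 34 members (26.5%), namely DCK, GART, PAICS, PRPS1, PRPS2, RRM1, RRM2, TK1 and TYMS, and in 10.96% of all genes with a window. No matches of different motifs shared a base in a member. A gene can have several RefSeq starts, and a match in any of their windows was counted. The matches of GART, PAICS and TK1 belong to starts inside a longer transcript of the gene. Those of some other members, RRM2 and DCK among them, also lie inside the annotated span of the gene. The stretches around the matches are shown for 8 of the 11 members with a match wholly before the start, and not for GART, PAICS and TK1. They read 5′ to 3′ on the strand of the gene, with the match in capitals (the reverse complements of the E2F cores read GCGGGAA and GCGCCAA).
RRM1 (chr11:4094437-4094496, plus strand): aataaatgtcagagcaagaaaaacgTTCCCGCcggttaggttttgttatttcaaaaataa
RRM2 (chr2:10122364-10122393, plus strand): cggggcccgcgcGCGCCAAggccgccgaga
TYMS (chr18:657589-657648, plus strand): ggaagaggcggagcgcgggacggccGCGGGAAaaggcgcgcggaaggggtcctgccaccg
DCK (chr4:70993432-70993572, plus strand): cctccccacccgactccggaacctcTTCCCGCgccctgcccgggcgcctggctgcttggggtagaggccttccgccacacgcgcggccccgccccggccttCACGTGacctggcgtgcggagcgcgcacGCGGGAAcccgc
PRPS2 (chrX:12791382-12791411, plus strand): tacatctagccgccgcgctTTCCCGCtccc
ATIC (chr2:215312001-215312030, plus strand): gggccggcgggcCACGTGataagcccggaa
DHODH (chr16:72008573-72008602, plus strand): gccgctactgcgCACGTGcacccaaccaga
PPAT (chr4:56435780-56435809, minus strand): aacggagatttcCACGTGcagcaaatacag

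In the TC4-2A line 16 of the 37 members were called higher than in the T-REx control, where 14.2% of all genes tested were, and 7 were called lower, where 14.6% of all genes were. In the TL4-2A line 12 members were called higher than in the T-REx control, against 21.9% of all genes, and 13 were called lower, against 22.5% of all genes. Between the lines, 17 members were called higher in TC4-2A than in the TL4-2A line, against 17.6% of all genes, and 6 were called lower, against 17.8% of all genes. The members are well expressed, with a median of 6.30 log2 CPM against 3.88 log2 CPM over all genes tested. Among the 9489 genes at 4 log2 CPM or more, 22.6% were called higher and 18.8% lower in the TC4-2A line, 30.03% and 27.1% in the TL4-2A line, and 23.98% and 24.3% between the lines.

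**Figure D1:**
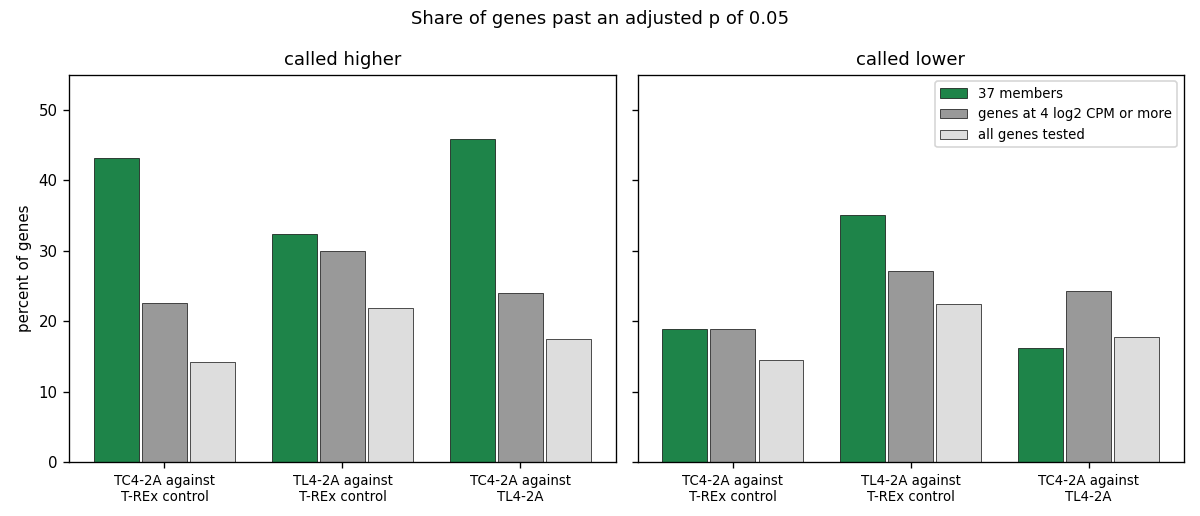
Percent of genes called higher (left) and lower (right) at an adjusted p under 0.05 in each comparison, for the 37 members, the 9489 genes at 4 log2 CPM or more and all 19473 genes tested. The members' share called higher was 43.2% in the TC4-2A line and 32.4% in the TL4-2A line against the T-REx control, and 45.9% in TC4-2A against the TL4-2A line.

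The changes were small. The median log2 fold change of the members was 0.10 in the TC4-2A line and 0.00 in the TL4-2A line against the T-REx control, and 0.10 between the lines, where all genes tested had a median of 0.00 in each comparison. Without regard to sign, the members' median was 0.12, 0.16 and 0.16 log2 units in these comparisons, and that of all genes tested was 0.14, 0.20 and 0.17. Among the 9489 genes at 4 log2 CPM or more, which are nearer to the members in level, it was 0.10, 0.13 and 0.11, below the members' median each time. No member moved by more than 0.51 log2 units in the TC4-2A line or 0.68 in the TL4-2A line. The 2 lines share their control libraries, so the members' values in each line are given side by side.

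**Figure D2:**
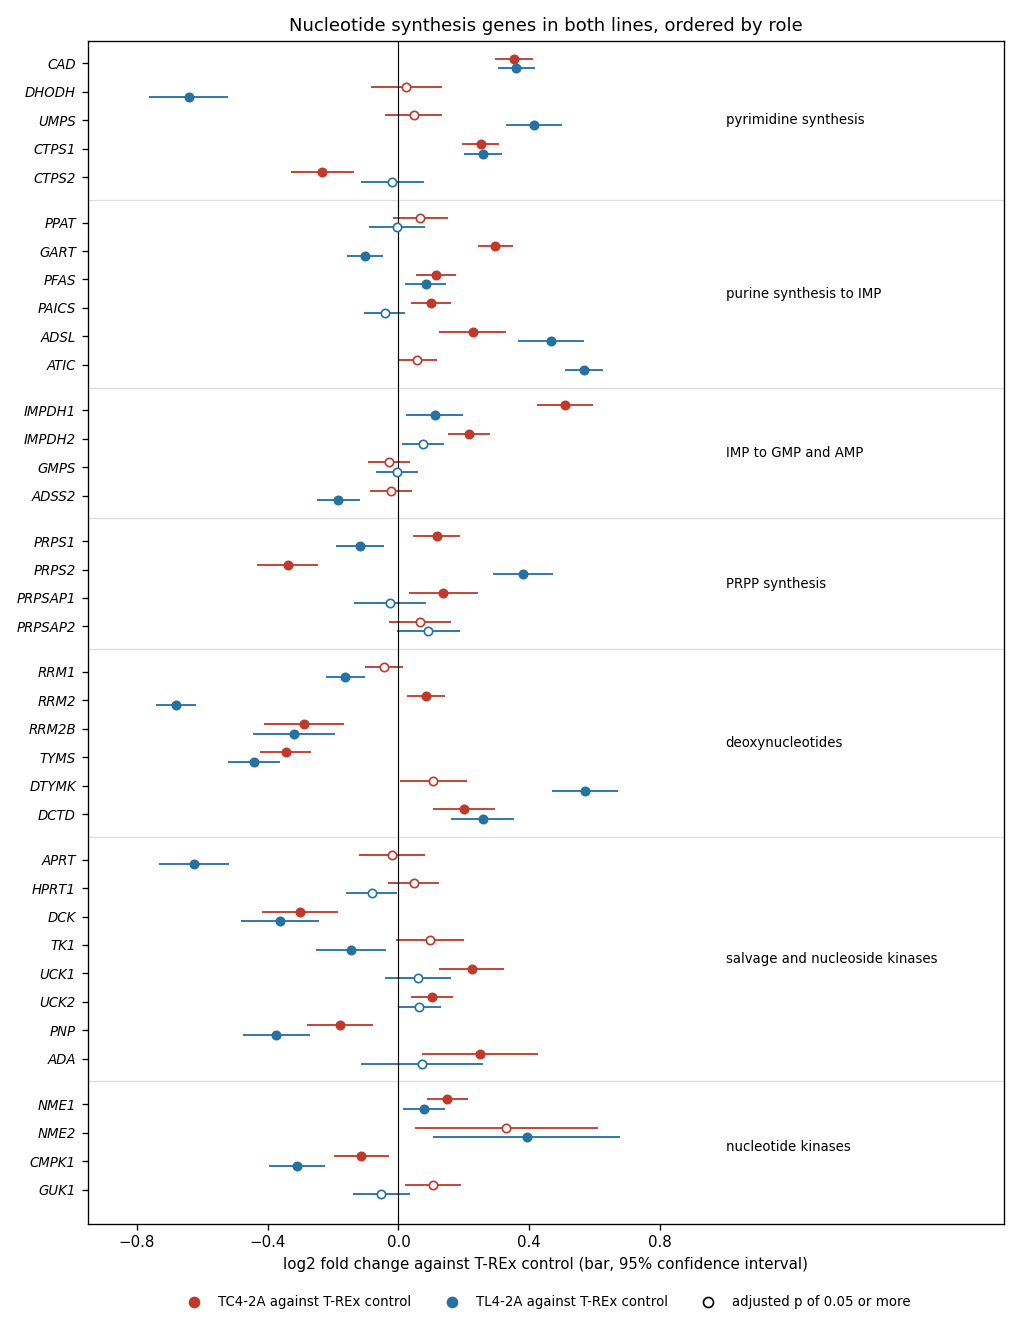
Log2 fold change of each of the 37 members against the T-REx control, in the TC4-2A line (red, upper) and the TL4-2A line (blue, lower), with 95% confidence intervals, grouped by role. Open circles had an adjusted p of 0.05 or more. CAD and CTPS1 lie at nearly the same place in both lines, while DHODH, ATIC, PRPS2, RRM2, DTYMK and APRT lie apart.

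In pyrimidine synthesis CAD and CTPS1, at its first and last steps, rose in both derived lines, while CTPS2 fell in the TC4-2A line. CAD (ENSG00000084774.14, chr2:27217369-27243943 on GRCh38) encodes the protein with the first 3 activities of the pathway and its regulated step. It had 385, 386 and 380 CPM in the TC4-2A line and 396, 381 and 379 CPM in the TL4-2A line, against 313, 293 and 295 CPM in the T-REx control. All 6 libraries of the derived lines lay above all 3 of the control. The log2 fold change was 0.35 ± 0.03 in the TC4-2A line (SE, adjusted p = 1.06e-12) and 0.36 ± 0.03 in the TL4-2A line (adjusted p = 3.43e-13), both from edgeR. The derived lines differed from each other by -0.01 (95% confidence interval -0.06 to 0.05). Its 20 tested neighbours, 10 on each side, had a median log2 fold change of 0.00 in the TC4-2A line and 0.03 in the TL4-2A line, with 4 and 5 of them called higher. Among these was nearby SLC5A6, a vitamin transporter, with changes of 0.29 and 0.33.

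CTPS1 (ENSG00000171793.16, chr1:40979300-41012565), which makes CTP from UTP, had nearly equal changes in both lines. It had 261, 257 and 257 CPM in the TC4-2A line and 261, 257 and 261 CPM in the TL4-2A line, against 225, 216 and 211 CPM in the T-REx control, with no overlap between the control and either line. The log2 fold change was 0.25 ± 0.03 in the TC4-2A line (SE, adjusted p = 4.38e-09) and 0.26 ± 0.03 in the TL4-2A line (edgeR adjusted p = 1.40e-09), and the lines differed by -0.01 (95% confidence interval -0.06 to 0.05). CTPS2, its X-linked paralog, averaged 56.6 ± 1.17 CPM in the TC4-2A line, 65.6 ± 3.88 CPM in the TL4-2A line and 66.5 ± 1.73 CPM in the T-REx control (SD, n = 3 each). CTPS2 fell in the TC4-2A line by 0.23 log2 units (edgeR adjusted p = 0.000197), and its change in the TL4-2A line was -0.02 (95% confidence interval -0.12 to 0.08). Its 20 neighbours had a median of -0.14 in the TC4-2A line, with 10 called lower, and of -0.22 in the TL4-2A line, with 13 called lower.

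In the middle of the pyrimidine pathway, DHODH fell and UMPS rose in the TL4-2A line. DHODH (ENSG00000102967.12, chr16:72008588-72027664) encodes the mitochondrial enzyme that makes orotate. It had 28.2, 28.2 and 29.2 CPM in the TC4-2A line and 16.7, 17.7 and 19.6 CPM in the TL4-2A line, against 27.3, 28.1 and 28.6 CPM in the T-REx control. The TL4-2A libraries lay below all others. It fell in the TL4-2A line by 0.64 ± 0.06 log2 units (SE, edgeR adjusted p = 2.74e-11), and its change in the TC4-2A line was 0.02 (95% confidence interval -0.08 to 0.13). Of its 20 neighbours, 13 were called lower in the TL4-2A line too, and their median was -0.42.

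UMPS (ENSG00000114491.14, chr3:124730433-124749273), which turns orotate into UMP, went the other way. It had 67.5, 65.0 and 68.3 CPM in the TC4-2A line and 85.1, 86.8 and 87.1 CPM in the TL4-2A line, against 63.4, 65.2 and 65.7 CPM in the T-REx control, with the TL4-2A libraries above all others. It rose in the TL4-2A line by 0.41 ± 0.04 log2 units (SE, edgeR adjusted p = 2.96e-10), and its neighbours had a median of -0.02 there. Its change in the TC4-2A line was 0.05 (95% confidence interval -0.04 to 0.13).

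**Figure D3:**
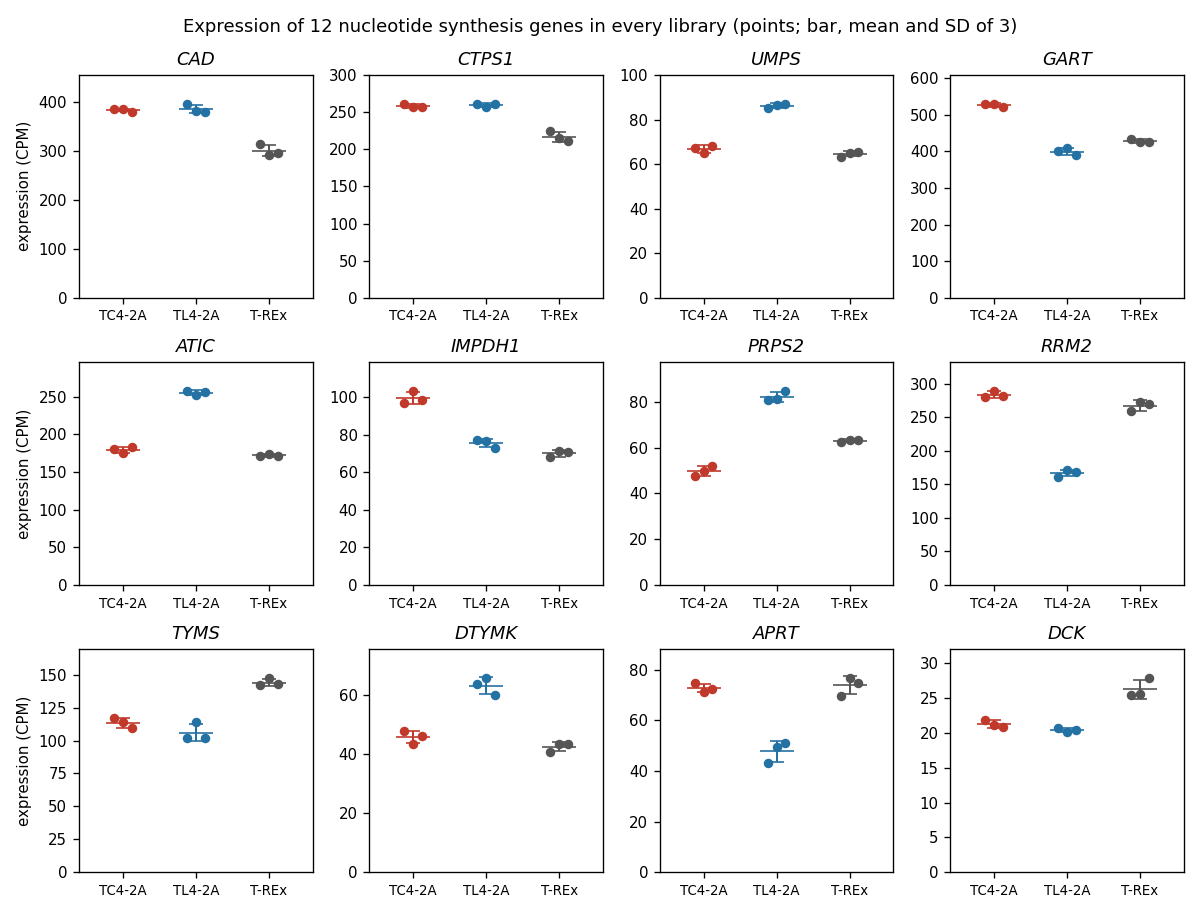
CPM of 12 members in each of the 9 libraries (points), with the mean and SD of 3 libraries per line, from 0 on each axis. CAD and CTPS1 stand higher and TYMS and DCK lower in both TC4-2A and the TL4-2A line, RRM2 and APRT are low in the TL4-2A line, ATIC, UMPS and DTYMK are high in the TL4-2A line, and GART and IMPDH1 are highest in the TC4-2A line.

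Of the 6 genes of purine synthesis to IMP, 4 were called higher and 0 lower in the TC4-2A line (0 lower also at an unadjusted p under 0.05 from edgeR and with DESeq2), and 3 were called higher and 1 lower in the TL4-2A line. Of all genes tested, 14.2% were called higher and 14.6% lower in the TC4-2A line, and 21.9% and 22.5% in the TL4-2A line. PPAT (ENSG00000128059.8, chr4:56393362-56435615) encodes the first and regulated enzyme. It had 88.5, 84.1 and 88.9 CPM in the TC4-2A line and 82.8, 84.4 and 81.5 CPM in the TL4-2A line, against 79.5, 84.1 and 85.9 CPM in the T-REx control. The 3 lines overlapped. Its log2 fold change was 0.07 in the TC4-2A line (95% confidence interval -0.02 to 0.15) and 0.00 in the TL4-2A line (-0.09 to 0.08). PAICS, across the shared promoter, averaged 412 ± 12.6 CPM in the TC4-2A line, 373 ± 14.2 CPM in the TL4-2A line and 384 ± 15.1 CPM in the T-REx control (SD, n = 3 each). It was called higher in the TC4-2A line (log2 fold change 0.10, edgeR adjusted p = 0.0123). The call did not hold without T-REx control replicate 1 (edgeR adjusted p = 0.122), TC4-2A replicate 2 (0.0677) or TC4-2A replicate 3 (0.0832). Per kb of exons PAICS stood at 54.8, 49.7 and 51.1 CPM in TC4-2A, TL4-2A and the T-REx control, and PPAT at 16.0, 15.2 and 15.3.

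GART (ENSG00000159131.17, chr21:33503931-33543491), an enzyme with 3 activities in the pathway, was the member of this branch that differed in direction. It had 530, 528 and 522 CPM in the TC4-2A line and 401, 409 and 389 CPM in the TL4-2A line, against 435, 426 and 427 CPM in the T-REx control, and none of the lines overlapped. Against the T-REx control it rose by 0.30 ± 0.03 in the TC4-2A line (SE, adjusted p = 1.95e-11) and fell by 0.10 ± 0.03 in the TL4-2A line (edgeR adjusted p = 0.00192), on the log2 scale. The difference between the lines was 0.40 ± 0.03 (edgeR adjusted p = 4.35e-15). Its neighbours had a median of 0.23 in that comparison, with 11 of 20 called the same way.

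ATIC (ENSG00000138363.15, chr2:215311956-215349773) encodes the enzyme of the last pair of steps to IMP. It had 180, 175 and 183 CPM in the TC4-2A line and 257, 252 and 256 CPM in the TL4-2A line, against 171, 174 and 171 CPM in the T-REx control. It rose in the TL4-2A line by 0.57 ± 0.03 log2 units (SE, edgeR adjusted p = 1.55e-18), and 12 of its 20 neighbours were called higher there, with a median of 0.46. The change in the TC4-2A line was 0.06 (95% confidence interval 0.00 to 0.12, edgeR adjusted p = 0.134).

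ADSL (ENSG00000239900.14, chr22:40346461-40390463) encodes the enzyme that acts both on the way to IMP and in making AMP. It had 37.9, 41.1 and 38.6 CPM in the TC4-2A line and 45.6, 47.1 and 46.3 CPM in the TL4-2A line, against 32.2, 33.7 and 34.6 CPM in the T-REx control. The 3 lines did not overlap. It rose by 0.23 ± 0.05 log2 units in the TC4-2A line (SE, adjusted p = 0.000518) and by 0.47 ± 0.05 in the TL4-2A line (edgeR adjusted p = 7.54e-10), while its neighbours had medians of 0.08 in both. A second gene model on the same strand covers 11.1% of the exon bases of ADSL. PFAS, the enzyme of the fourth step, averaged 194 ± 3.36 CPM in the TC4-2A line, 190 ± 7.40 CPM in the TL4-2A line and 179 ± 0.239 CPM in the T-REx control (SD, n = 3 each). Its log2 fold change was 0.11 in the TC4-2A line (edgeR adjusted p = 0.00356). The value in the TL4-2A line, 0.08 (edgeR adjusted p = 0.0254), passed the threshold, but not with DESeq2 (adjusted p = 0.0547), without the expression filter (0.134), without any 1 of the T-REx control libraries (0.0611 to 0.0749) or without TL4-2A replicate 1 (0.121) or 2 (0.158).

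On the way to GMP, both IMPDH genes rose in the TC4-2A line, and GMPS was called in neither line. IMPDH1 (ENSG00000106348.18, chr7:128392277-128409986) and IMPDH2 (ENSG00000178035.13, chr3:49024325-49029447) both oxidise IMP on the way to GMP. IMPDH1 had 96.9, 103 and 98.8 CPM in the TC4-2A line and 77.4, 76.4 and 73.0 CPM in the TL4-2A line, against 67.9, 71.4 and 70.7 CPM in the T-REx control. It rose in the TC4-2A line by 0.51 ± 0.04 log2 units (SE, edgeR adjusted p = 2.18e-12), the largest increase of any member in this line, and 16 of its 20 neighbours were called higher too, with a median of 0.45. In the TL4-2A line its log2 fold change was 0.11 (edgeR adjusted p = 0.0355). That call was lost with DESeq2 (adjusted p = 0.0604), without the expression filter (0.110), without any 1 of the T-REx control libraries (0.0517 to 0.157) and without TL4-2A replicate 1 (0.144) or 2 (0.110). Named pseudogenes of IMPDH1 held counts equal to 6.05% of its own.

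IMPDH2, the more abundant of the pair, had 199, 193 and 188 CPM in the TC4-2A line and 170, 179 and 177 CPM in the TL4-2A line, against 173, 163 and 163 CPM in the T-REx control. The TC4-2A libraries lay above all others. Its log2 fold change was 0.22 ± 0.03 in the TC4-2A line (SE, edgeR adjusted p = 9.33e-07), with a neighbour median of 0.02. In the TL4-2A line it was 0.08 (edgeR adjusted p = 0.0506), which passed the threshold with RLE scaling (adjusted p = 0.0472), without T-REx control replicate 1 (0.0196) and without TL4-2A replicate 1 (0.0315). GMPS, the next enzyme to GMP, averaged 178 ± 1.23 CPM in the TC4-2A line, 182 ± 5.80 CPM in the TL4-2A line and 182 ± 6.83 CPM in the T-REx control, with changes of -0.03 (95% confidence interval -0.09 to 0.03) and 0.00 (-0.07 to 0.06). ADSS2, the first enzyme of the AMP branch, fell in the TL4-2A line by 0.18 log2 units (edgeR adjusted p = 1.65e-05) and had a change of -0.02 in the TC4-2A line (-0.09 to 0.04).

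PRPP synthetase makes the sugar donor of all these routes, and its X-linked paralogs PRPS1 and PRPS2 moved in opposite directions. PRPS2 (ENSG00000101911.13, chrX:12791355-12824222) had 47.8, 49.9 and 52.2 CPM in the TC4-2A line and 80.7, 81.3 and 84.8 CPM in the TL4-2A line, against 62.4, 63.6 and 63.4 CPM in the T-REx control. The 3 lines did not overlap, with TC4-2A lowest and TL4-2A highest. It fell by 0.34 ± 0.05 log2 units in the TC4-2A line (SE, adjusted p = 3.21e-07) and rose by 0.38 ± 0.05 in the TL4-2A line (edgeR adjusted p = 7.51e-09). The difference between the lines was -0.72 ± 0.05 (edgeR adjusted p = 1.24e-15), while its 20 neighbours had a median of 0.08 in that comparison. Against the T-REx control its neighbours had a median of -0.19 in the TC4-2A line, where 10 were called lower, and of -0.11 in the TL4-2A line, where 2 were called higher.

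PRPS1 averaged 135 ± 2.99 CPM in the TC4-2A line, 115 ± 4.60 CPM in the TL4-2A line and 124 ± 1.89 CPM in the T-REx control (SD, n = 3 each), without overlap. It was called higher in the TC4-2A line (0.12, adjusted p = 0.00985) and lower in the TL4-2A line (-0.12, edgeR adjusted p = 0.00761). The first call did not hold when T-REx control replicate 2 (adjusted p = 0.0540) or TC4-2A replicate 1 (0.0565) was left out, and the second without TL4-2A replicate 1 (0.0765), from edgeR. The difference of 0.23 between the lines (edgeR adjusted p = 1.41e-06) held under every alternative. Per kb of exons PRPS1 was 2.20 times as high as PRPS2 in the TC4-2A line, 1.13 times in the TL4-2A line and 1.60 times in the T-REx control.

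PRPSAP1 and PRPSAP2 encode proteins that bind the synthetase. PRPSAP1 averaged 46.3 ± 3.11 CPM in the TC4-2A line, 41.4 ± 2.24 CPM in the TL4-2A line and 42.0 ± 0.592 CPM in the T-REx control (SD, n = 3 each). Its call in the TC4-2A line (0.14, edgeR adjusted p = 0.0442) was lost with DESeq2 (adjusted p = 0.111), without the expression filter (0.0607), without any 1 of the T-REx control libraries (0.0654 to 0.0991) and without TC4-2A replicate 1 (0.204) or 3 (0.126). The difference between TC4-2A and the TL4-2A line (0.16, edgeR adjusted p = 0.0146) was lost without TC4-2A replicate 1 (adjusted p = 0.0853) or TL4-2A replicate 2 (0.110). PRPSAP2 averaged 50.8 ± 1.74 CPM in the TC4-2A line, 51.7 ± 0.973 CPM in the TL4-2A line and 48.5 ± 1.22 CPM in the T-REx control, and was called in none of the 3 comparisons (adjusted p of 0.318, 0.117 and 0.722 from edgeR).

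In the deoxynucleotide branch 4 of 6 members were called lower in the TL4-2A line, among them both subunits of ribonucleotide reductase, and 2 were called higher. Of all genes tested, 22.5% were called lower and 21.9% higher there. RRM2 (ENSG00000171848.16, chr2:10120698-10211725) encodes the small subunit that rises in S phase. It had 280, 289 and 282 CPM in the TC4-2A line and 162, 171 and 168 CPM in the TL4-2A line, against 259, 274 and 270 CPM in the T-REx control. The TL4-2A libraries lay far below the rest. It fell in the TL4-2A line by 0.68 ± 0.03 log2 units (SE, edgeR adjusted p = 3.60e-20), the largest change of any member, and was 0.76 ± 0.03 higher in TC4-2A than in the TL4-2A line (edgeR adjusted p = 7.48e-22). Of its 20 neighbours 18 were called lower in the TL4-2A line, with a median of -0.63, so that RRM2 lay within its surroundings, and the part of the neighbourhood in its fall was not tested. RRM2 was called higher in the TC4-2A line by 0.08 (edgeR adjusted p = 0.0232). The call did not hold with DESeq2 (adjusted p = 0.0514) and without T-REx control replicate 1 (0.155) or TC4-2A replicate 2 (0.156).

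RRM1 (ENSG00000167325.15, chr11:4094707-4138932), the large subunit, changed less. It had 182, 189 and 183 CPM in the TC4-2A line and 173, 169 and 170 CPM in the TL4-2A line, against 191, 192 and 190 CPM in the T-REx control. It fell in the TL4-2A line by 0.16 ± 0.03 log2 units (SE, edgeR adjusted p = 1.83e-05), where its neighbours had a median of 0.10. In the TC4-2A line all 3 libraries also lay below the control, with a change of -0.04 (95% confidence interval -0.10 to 0.01) that did not pass the test. RRM2B (ENSG00000048392.12, chr8:102204502-102238961) encodes the small subunit that p53 can induce. It had 23.7, 22.3 and 25.8 CPM in the TC4-2A line and 21.4, 23.0 and 25.8 CPM in the TL4-2A line, against 28.3, 29.7 and 29.6 CPM in the T-REx control. It fell in both, by 0.29 ± 0.06 in the TC4-2A line (SE, adjusted p = 0.000253) and by 0.32 ± 0.06 in the TL4-2A line (edgeR adjusted p = 5.42e-05), on the log2 scale. Per kb of exons RRM2 was 6.98 times as high as RRM2B in the TC4-2A line, 4.20 times in the TL4-2A line and 5.40 times in the T-REx control.

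TYMS (ENSG00000176890.16, chr18:657653-673578) encodes thymidylate synthase. It had 117, 114 and 110 CPM in the TC4-2A line and 102, 114 and 102 CPM in the TL4-2A line, against 142, 147 and 143 CPM in the T-REx control. Every library of both derived lines lay below the control. It fell by 0.34 ± 0.04 log2 units in the TC4-2A line (SE, adjusted p = 3.55e-09) and by 0.44 ± 0.04 in the TL4-2A line (edgeR adjusted p = 7.12e-12). Its neighbours fell as well, with medians of -0.36 in TC4-2A and -0.28 in the TL4-2A line and 11 of 19 called lower in each, and their part was not tested. ENOSF1, on the opposite strand, shares 967 bases (39.9%) of the exons of TYMS, and the strand setting of the counting is not given in the sources used here, so reads of the 2 genes may not be separated. The lines differed by 0.10 (edgeR adjusted p = 0.0563), which passed the threshold with the replicate block (adjusted p = 0.0400), without the expression filter (0.0305), with at least 10 counts in every library (0.0377), without TC4-2A replicate 3 (0.0303) and without TL4-2A replicate 2 (0.00526).

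DTYMK (ENSG00000168393.13, chr2:241675747-241686944) encodes the kinase of the next step to thymidine triphosphate. It had 47.6, 43.5 and 46.0 CPM in the TC4-2A line and 63.5, 65.5 and 59.8 CPM in the TL4-2A line, against 40.7, 43.3 and 43.1 CPM in the T-REx control. It rose in the TL4-2A line by 0.57 ± 0.05 log2 units (SE, edgeR adjusted p = 5.67e-12), and 14 of its 17 neighbours were called higher there, with a median of 0.67. Its change in the TC4-2A line was 0.11 (edgeR adjusted p = 0.115). DCTD, which deaminates dCMP to feed thymidylate synthase, averaged 54.7 ± 0.999 CPM in the TC4-2A line, 57.0 ± 2.22 CPM in the TL4-2A line and 47.7 ± 0.338 CPM in the T-REx control (SD, n = 3 each). It rose in both, by 0.20 (adjusted p = 0.00101) and 0.26 (adjusted p = 2.47e-05) log2 units in TC4-2A and the TL4-2A line, from edgeR, with a neighbour median of 0.16 in each.

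**Figure D4:**
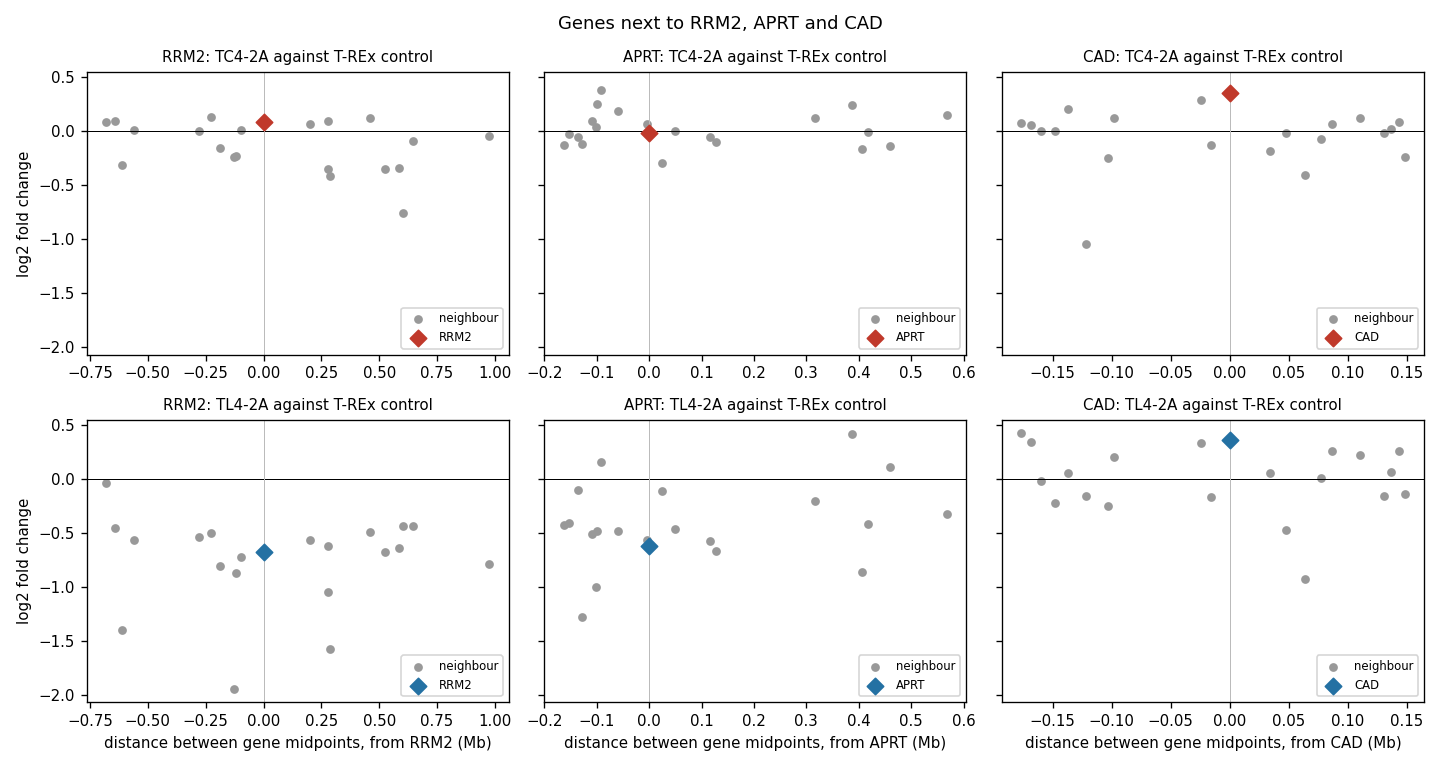
Log2 fold change against the T-REx control of RRM2, APRT and CAD (diamonds) and of the 20 tested genes nearest to each (grey), by distance between gene midpoints in Mb, in the TC4-2A line (top) and the TL4-2A line (bottom). In the TL4-2A line all 20 genes around RRM2 and 17 of 20 around APRT lie below 0, with medians of -0.63 and -0.44, while around CAD the medians are 0.00 in TC4-2A and 0.03 in the TL4-2A line.

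Of the 8 salvage genes, 4 were called lower and 0 higher in the TL4-2A line (0 higher also at an unadjusted p under 0.05 from edgeR and with DESeq2), and 3 were called higher and 2 lower in the TC4-2A line. Of all genes tested, 22.5% were called lower and 21.9% higher in the TL4-2A line, and 14.2% higher and 14.6% lower in the TC4-2A line. APRT (ENSG00000198931.11, chr16:88809339-88811937) encodes the enzyme that returns adenine to AMP. It had 74.6, 71.3 and 72.4 CPM in the TC4-2A line and 43.1, 49.5 and 50.9 CPM in the TL4-2A line, against 69.8, 76.6 and 74.9 CPM in the T-REx control. It fell in the TL4-2A line by 0.62 ± 0.05 log2 units (SE, edgeR adjusted p = 1.90e-12), and 13 of its 20 neighbours were called lower there, with a median of -0.44. Its change in the TC4-2A line was -0.02 (95% confidence interval -0.12 to 0.08). HPRT1, which salvages hypoxanthine and guanine, had the highest level per kb of exons of all members in the T-REx control (70.5 ± 2.51 CPM per kb), beside 72.8 ± 1.88 in the TC4-2A line and 66.6 ± 2.86 in the TL4-2A line (SD, n = 3 each). That rank depends on the annotated exon length, 1.61 kb for HPRT1. By CPM, GART stood higher in the T-REx control, with a mean of 429 against 114 for HPRT1. HPRT1 was 0.13 log2 units higher in TC4-2A than in the TL4-2A line (edgeR adjusted p = 0.00832). That call was lost without TL4-2A replicate 1 (adjusted p = 0.0849). HPRT1 was not called against the T-REx control (adjusted p of 0.397 in TC4-2A and 0.0852 in the TL4-2A line), except in the TL4-2A line without T-REx control replicate 1 (0.0391).

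DCK (ENSG00000156136.10, chr4:70992538-71030914) encodes the kinase of deoxycytidine and other deoxynucleosides. It had 21.9, 21.1 and 20.9 CPM in the TC4-2A line and 20.7, 20.2 and 20.5 CPM in the TL4-2A line, against 25.5, 25.5 and 27.9 CPM in the T-REx control. Both derived lines lay below the control in every library. It fell by 0.30 ± 0.06 log2 units in the TC4-2A line (SE, adjusted p = 7.54e-05) and by 0.36 ± 0.06 in the TL4-2A line (edgeR adjusted p = 3.94e-06), while its neighbours had medians of 0.01 and -0.09. MOB1B, on the same strand, shares 6.41% of the exon bases of DCK, and how shared reads were counted is not given in the sources used here. PNP (ENSG00000198805.12, chr14:20461992-20477094) encodes the enzyme that splits purine nucleosides. It had 68.5, 62.6 and 69.5 CPM in the TC4-2A line and 54.4, 62.3 and 58.5 CPM in the TL4-2A line, against 76.3, 72.7 and 78.2 CPM in the T-REx control. It fell by 0.18 ± 0.05 in the TC4-2A line (SE, adjusted p = 0.00488) and by 0.37 ± 0.05 in the TL4-2A line (edgeR adjusted p = 1.31e-07), on the log2 scale.

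The other salvage genes changed by 0.25 log2 units or less. TK1, the S-phase thymidine kinase, averaged 59.0 ± 4.33 CPM in the TC4-2A line, 49.9 ± 2.87 CPM in the TL4-2A line and 55.1 ± 0.973 CPM in the T-REx control (SD, n = 3 each). It was 0.24 higher in TC4-2A than in the TL4-2A line (edgeR adjusted p = 0.000328). Its call against the control in the TL4-2A line (-0.14, edgeR adjusted p = 0.0251) was lost with DESeq2 (adjusted p = 0.0517) and without T-REx control replicate 2 (0.0680), T-REx control replicate 3 (0.0753) or TL4-2A replicate 2 (0.184). Among the uridine-cytidine kinases, UCK1 was called higher in the TC4-2A line (0.22, edgeR adjusted p = 0.000422) and so was UCK2 (0.10, edgeR adjusted p = 0.0133), the second of these not without T-REx control replicate 2 (0.0735) or TC4-2A replicate 1 (0.131). ADA, which deaminates adenosine and had the lowest level per kb of exons but not the lowest CPM, shares 853 exon bases with PKIG on the opposite strand. It averaged 14.2 ± 0.541 CPM in the TC4-2A line, 12.6 ± 0.897 CPM in the TL4-2A line and 11.98 ± 1.66 CPM in the T-REx control. Its call in the TC4-2A line (0.25, edgeR adjusted p = 0.0286) came with overlapping libraries and was lost with DESeq2 (adjusted p = 0.0882) and without T-REx control replicate 2 (0.0861), T-REx control replicate 3 (0.214), TC4-2A replicate 1 (0.0710) or TC4-2A replicate 2 (0.117).

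Among the nucleotide kinases, CMPK1 (ENSG00000162368.14, chr1:47333790-47394866) encodes the enzyme that phosphorylates UMP and CMP. It had 80.8, 79.8 and 79.0 CPM in the TC4-2A line and 68.7, 70.9 and 69.6 CPM in the TL4-2A line, against 82.7, 87.5 and 89.1 CPM in the T-REx control. It fell in the TL4-2A line by 0.31 ± 0.04 log2 units (SE, edgeR adjusted p = 1.50e-07), with a neighbour median of 0.01. The smaller change in the TC4-2A line (-0.11, edgeR adjusted p = 0.0356) lost its call with DESeq2 (adjusted p = 0.0593), without the expression filter (0.0655) and without T-REx control replicate 2 (0.131) or 3 (0.183) or TC4-2A replicate 2 (0.0616) or 3 (0.0935). GUK1, the GMP kinase, averaged 81.6 ± 1.62 CPM in the TC4-2A line, 73.1 ± 0.996 CPM in the TL4-2A line and 75.8 ± 2.87 CPM in the T-REx control (SD, n = 3 each). Its change in the TC4-2A line (0.11, edgeR adjusted p = 0.0534) passed the threshold with the replicate block (adjusted p = 0.0363), with at least 10 counts in every library (0.0412) and without TC4-2A replicate 2 (0.0432).

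NME1 and NME2 encode nearly identical nucleoside diphosphate kinases that lie next to each other on chromosome 17, and a readthrough gene covers 18.7% of the exon bases of NME1 and 24.2% of those of NME2. How the counting treated reads that fit both is not given in the sources used here, and NME2 had only 884 counts over all 9 libraries, against 28531 for NME1, so its level is uncertain. NME2 (ENSG00000243678.12, chr17:51165435-51171744) had 5.40, 5.94 and 5.10 CPM in the TC4-2A line and 5.81, 5.94 and 5.42 CPM in the TL4-2A line, against 5.46, 3.85 and 3.86 CPM in the T-REx control, with overlap between all lines. Its call in the TL4-2A line (0.39, edgeR adjusted p = 0.0220) was lost with DESeq2 (adjusted p = 0.0612) and without T-REx control replicate 2 (0.128), T-REx control replicate 3 (0.106), TL4-2A replicate 1 (0.0540) or TL4-2A replicate 2 (0.0722). In the TC4-2A line (0.33, edgeR adjusted p = 0.0695) it passed the threshold without T-REx control replicate 1 (0.00849).

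NME1 averaged 175 ± 0.817 CPM in the TC4-2A line, 167 ± 3.26 CPM in the TL4-2A line and 158 ± 6.10 CPM in the T-REx control (SD, n = 3 each), and was called higher in the TC4-2A line (0.15, edgeR adjusted p = 0.000278). In the TL4-2A line it was 0.08 higher (edgeR adjusted p = 0.0404). The call did not hold in 8 of 15 alternatives, with DESeq2 (adjusted p = 0.0788), without the expression filter (0.187), in a fit of the 2 lines compared alone (0.0522), and without T-REx control replicate 3 (0.307), TC4-2A replicate 2 (0.0589), TC4-2A replicate 3 (0.0529), TL4-2A replicate 1 (0.112) or TL4-2A replicate 3 (0.142).

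Read by line, 7 members were called higher in both TC4-2A and the TL4-2A line (CAD, CTPS1, PFAS, ADSL, IMPDH1, DCTD and NME1) and 5 were called lower in both (RRM2B, TYMS, DCK, PNP and CMPK1), where 7.95% and 8.61% of all genes tested were. The lines share their control libraries. GART, PRPS1 and RRM2 were called higher in TC4-2A and lower in the TL4-2A line (1.39% of all genes tested), and PRPS2 the reverse (1.3% of all genes). PPAT, GMPS, PRPSAP2, HPRT1 and GUK1 were called in neither. Several of these shared and opposite calls were lost under some of the alternatives. PFAS, IMPDH1 and NME1 lost theirs in the TL4-2A line, CMPK1 and RRM2 theirs in the TC4-2A line, and PRPS1 its call in each line.

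Of the 9 members with an E2F core at a RefSeq start, which for some lies inside the gene, 7 were called lower in the TL4-2A line. These were DCK, GART, PRPS1, RRM1, RRM2, TK1 and TYMS. PRPS2 was called higher and PAICS was not called. The median log2 fold change of the 9 was -0.14 in the TL4-2A line. There 22.5% of all genes tested and 26.9% of the 2151 tested genes with such a core were called lower. In the TC4-2A line 4 of the 9 were called higher, 3 lower and 2 were not called, with a median of 0.08, where 18.5% of the genes with such a core were called higher and 15.8% lower. Of the 6 with an E-box, 2 were called higher and 1 lower in the TC4-2A line, and 2 higher and 2 lower in the TL4-2A line. Over the 1501 tested genes with an E-box, 21.9% were called higher and 16.1% lower in the TC4-2A line, and 24.1% and 26.2% in the TL4-2A line. These are counts over few genes, and whether the motif or the place of the gene goes with the change was not tested.

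Some members with larger changes lay in stretches of the genome whose other genes moved the same way, and the part of these neighbours in the members' changes was not tested. Of the 15 members called in the TL4-2A line with a change of at least 0.3 log2 units, 6 (DHODH, ATIC, RRM2, TYMS, DTYMK and APRT) had neighbours with a median past 0.2 the same way, as 27.3% of all genes called with such a change did. The other 9 were CAD, UMPS, ADSL, PRPS2, RRM2B, DCK, PNP, NME2 and CMPK1, with neighbour medians between -0.14 and 0.08. In the TC4-2A line 2 of 5 such members, IMPDH1 and TYMS, had such neighbours, against 25.8% of all such genes, while CAD, PRPS2 and DCK had neighbour medians between -0.19 and 0.01. Between the lines 7 of 9 had them (DHODH, GART, ATIC, IMPDH1, RRM2, DTYMK and APRT), against 41.8% of all such genes, and UMPS and PRPS2 had neighbour medians of -0.05 and 0.08. Without called members of any size in such stretches, IMPDH1 in the TL4-2A line among them, an alternative chosen after seeing the data, 15 members were called higher and 6 lower in the TC4-2A line, 9 and 9 in the TL4-2A line, and 12 and 4 in TC4-2A against the TL4-2A line.

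**Figure D5:**
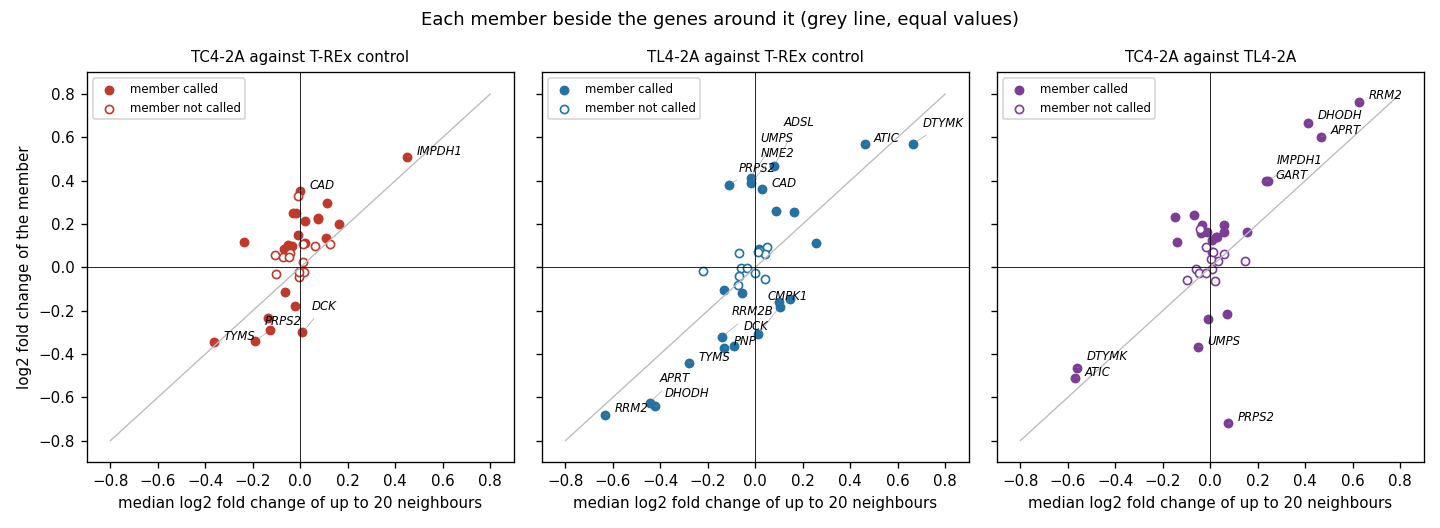
Log2 fold change of each member (vertical) against the median log2 fold change of up to 20 neighbouring tested genes (horizontal), in the 3 comparisons; filled points are called, names mark called members with a change of at least 0.3, and the grey line marks equal values. In the TL4-2A line RRM2, APRT, DHODH, ATIC and DTYMK have neighbour medians of -0.63, -0.44, -0.42, 0.46 and 0.67, while those of CAD, UMPS, PRPS2 and DCK are 0.03, -0.02, -0.11 and -0.09.

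Genes around the pathway were read from further lists. Of all genes tested, 14.2% were called higher and 14.6% lower in the TC4-2A line, and 21.9% and 22.5% in the TL4-2A line. In TC4-2A against the TL4-2A line 17.6% were called higher and 17.8% lower. Folate enzymes supply the one-carbon units of purine and thymidylate synthesis, and of 15 listed genes 3 were called higher and 3 lower in the TC4-2A line, 3 higher and 8 lower in the TL4-2A line, and 8 higher and 1 lower in TC4-2A against the TL4-2A line. Their median log2 fold change was 0.01, -0.20 and 0.28 in these comparisons. The list holds TYMSOS, a long noncoding RNA antisense to TYMS that is no folate gene and was lower in both lines. Without TYMSOS, left out after its values were seen, 3 of 14 were called higher and 2 lower in the TC4-2A line, 3 higher and 7 lower in the TL4-2A line, and 8 higher and 1 lower between the lines, with medians of 0.02, -0.18 and 0.21. MTHFD2 and SHMT2, the mitochondrial enzymes of this route, were 0.33 (adjusted p = 5.00e-12) and 0.34 (adjusted p = 2.09e-11) log2 units higher in TC4-2A than in the TL4-2A line, from edgeR. ALDH1L2, which oxidises the formyl folate in mitochondria, averaged 12.9 ± 1.01 CPM in the TC4-2A line, 7.55 ± 0.952 CPM in the TL4-2A line and 16.5 ± 1.89 CPM in the T-REx control (SD, n = 3 each). It fell by 0.36 (adjusted p = 0.00191) and 1.12 (adjusted p = 8.10e-12) log2 units in TC4-2A and the TL4-2A line, from edgeR.

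Of 12 regulators tested, 3 were called higher and 4 lower in the TC4-2A line, and 2 higher and 6 lower in the TL4-2A line. The shares of all genes tested were 14.2% and 14.6% in the TC4-2A line, and 21.9% and 22.5% in the TL4-2A line. MYC, a transcription factor known to drive many nucleotide synthesis genes, averaged 196 ± 5.95 CPM in the TC4-2A line, 124 ± 4.99 CPM in the TL4-2A line and 162 ± 3.95 CPM in the T-REx control (SD, n = 3 each). It rose by 0.27 log2 units in the TC4-2A line (adjusted p = 2.39e-08) and fell by 0.38 in the TL4-2A line (edgeR adjusted p = 7.23e-12), with neighbour medians of -0.03 and 0.00. MXI1, which competes with MYC for its partner MAX, fell by 0.57 in the TC4-2A line (adjusted p = 3.09e-12) and by 0.31 in the TL4-2A line (edgeR adjusted p = 1.38e-06), where its neighbours had medians of -0.49 and -0.16. E2F2, a factor of S-phase entry, fell by 0.16 in the TC4-2A line (adjusted p = 0.0127) and by 0.62 in the TL4-2A line (edgeR adjusted p = 4.08e-12), where its neighbours had a median of -0.58.

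Genes of DNA replication, which use the deoxynucleotides, gave 5 of 16 called higher and 0 lower in the TC4-2A line (0 lower also at an unadjusted p under 0.05 from edgeR and with DESeq2), and 6 higher and 4 lower in the TL4-2A line. Beside this list and the mitosis list below, 14.2% of all genes tested were called higher and 14.6% lower in the TC4-2A line. In the TL4-2A line these shares were 21.9% and 22.5%. MCM7, a subunit of the replicative helicase, rose in the TC4-2A line by 0.46 log2 units (edgeR adjusted p = 9.68e-17), where its neighbours had a median of 0.38. CDT1 and GINS2, a pair of replication factors, fell in the TL4-2A line by 0.57 (adjusted p = 8.60e-15) and 0.49 (edgeR adjusted p = 2.01e-10), with neighbour medians of -0.44 and -0.50. Of 10 mitosis genes 0 were called higher (1 at an unadjusted p under 0.05 from edgeR, 0 with DESeq2) and 3 lower in the TC4-2A line, and 3 higher and 3 lower in the TL4-2A line. MKI67, a marker of cycling cells, fell in the TC4-2A line by 0.64 log2 units (edgeR adjusted p = 1.58e-19), with a neighbour median of -0.57. CDK1 fell in both lines, by 0.18 (adjusted p = 0.000898) and 0.24 (adjusted p = 9.91e-06) in TC4-2A and the TL4-2A line, from edgeR, and PLK1 rose in the TL4-2A line by 0.17 (adjusted p = 5.91e-06).

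Of 23 other nucleotide enzymes tested, 5 were called higher and 3 lower in the TC4-2A line, and 5 higher and 8 lower in the TL4-2A line. Beside these and the lists below, 14.2% of all genes tested were called higher and 14.6% lower in the TC4-2A line. In the TL4-2A line these shares were 21.9% and 22.5%. TK2, the mitochondrial thymidine kinase, fell in the TL4-2A line by 0.53 log2 units (edgeR adjusted p = 1.64e-06), with a neighbour median of -0.32. NME4 rose there by 0.22 (edgeR adjusted p = 1.81e-06), with a neighbour median of 0.29. SAMHD1, which destroys deoxynucleotides, rose by 0.22 in the TC4-2A line (edgeR adjusted p = 2.10e-05) and 0.14 in the TL4-2A line (edgeR adjusted p = 0.00307). Of 20 genes of nucleotide breakdown only 11 passed the expression filter, with 1 called higher and 1 lower in the TC4-2A line and 1 higher and 3 lower in the TL4-2A line. Of these, the nucleotidase NT5C1A was 0.43 higher (adjusted p = 0.000115), the nucleotidase NT5M 0.38 lower (adjusted p = 0.0273) and the deaminase AMPD3 0.47 lower (adjusted p = 0.0124) in the TL4-2A line, from edgeR. Of 4 nucleoside transporters tested, SLC29A2 rose in the TL4-2A line by 0.44 (adjusted p = 5.08e-07) and SLC29A1 rose in the TC4-2A line by 0.12 (edgeR adjusted p = 0.0148), while SLC29A3 was called in neither.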

How the data were processed

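Ribosomal RNA was removed and 3 libraries each were sequenced from TC4-2A, TL4-2A and T-REx control cells. The authors mapped reads to GRCh38 with HISAT2 and counted them per Gencode v33 gene with featureCounts (Subread), and the deposited values are raw counts. The library kit keeps strand, but tool versions, the strand option of the counting and its handling of multiply mapped reads were not given in the sources used here. Deposited tables of the authors' own DESeq2 comparisons (fold changes and p-values) were not used.

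Of 60651 lines, 3 damaged lines and 44 lines for copies on the Y pseudoautosomal regions were left out. Positions were taken from Gencode v44, where 99.77% of the gene IDs were found. Libraries (16561680 to 21491977 counts) were filtered with filterByExpr, scaled by TMM (factors 0.9906 to 1.0141) and fitted with 1 term for each line in the quasi-likelihood model of edgeR 4.0.16 (R 4.3.3). Tests were 2-sided, with Benjamini-Hochberg adjustment over 19473 genes. CPM per kb used the length of merged exons in Gencode v44. That length covers the exons of all annotated transcripts of a gene (1.61 kb for HPRT1, 12.2 kb for ADA). Ranks and ratios per kb between genes therefore depend on the annotation. Neighbours are the 10 tested genes on each side. No replicates shared counts within sampling noise (chi-square per gene between 1.817 and 4.452). Alternatives included DESeq2 1.42.0 and each library left out. Tested on simulated data for TC4-2A against T-REx control (19473 genes), edgeR recovered 42%, 76%, 90% and 94% of genes changed 1.25, 1.5, 2 and 4-fold, with 5 false calls of 156. Far fewer genes were changed there than were called in the data (14.2% higher and 14.6% lower). The spread that the quasi-likelihood model adds for each gene was not simulated. These rates therefore need not hold for the real comparison. Plots used Python 3.11.15, pandas 2.3.3 and matplotlib 3.10.9.

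Members and gene lists were chosen with earlier results of these data known. Every library's value is given for members called with a change of at least 0.3 log2 units and for CAD, PPAT, IMPDH2, RRM1, RRM2, TYMS and CTPS1, and from each further list the 3 genes with the smallest p are named.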

Additional observations from a re-analysis of the deposited data

Results flagged for a closer look

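The direct comparison of TC4-2A with TL4-2A tests whether a member stands differently in the derived lines. In it 23 of the 37 members were called by edgeR, 17 higher and 6 lower in TC4-2A. Of all genes tested, 17.6% were called higher and 17.8% lower. Among the 9489 genes at 4 log2 CPM or more these shares were 23.98% and 24.3%. Each value below is the log2 level in TC4-2A minus that in TL4-2A, and a positive one means higher in TC4-2A. The largest were RRM2 (0.76), PRPS2 (-0.72), DHODH (0.66), APRT (0.60), ATIC (-0.51) and DTYMK (-0.46), and among these PRPS2 alone had neighbours whose median was under 0.2 in size. GART (0.40), IMPDH1 (0.40) and UMPS (-0.37) followed.

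Among the smaller differences, those of purine synthesis were ADSL (-0.24), PAICS (0.14), IMPDH2 (0.14) and ADSS2 (0.16). Those of the enzymes of PRPP synthesis were PRPS1 (0.23) and PRPSAP1 (0.16). The remaining ones were CTPS2 (-0.21), RRM1 (0.12), TK1 (0.24), HPRT1 (0.13), UCK1 (0.16), PNP (0.19), CMPK1 (0.20) and GUK1 (0.16).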

How the results depend on the processing

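No member reversed its direction in a called comparison under any of 15 alternatives (DESeq2, scaling by RLE, a minimum of 10 counts per library, no filter on expression, models of just the pair of lines in question, a block for the replicate number, and 9 fits that each leave out 1 library), and each count of called members stayed within 1.5 times its value. Leaving out single libraries gave 12 to 16 members higher and 6 to 7 lower in TC4-2A against T-REx control, 8 to 12 higher and 12 to 14 lower in TL4-2A against T-REx control, and 16 to 18 higher and 6 lower in TC4-2A against TL4-2A. Under all 15 alternatives 16 of 23 calls were kept in TC4-2A, 19 of 25 in TL4-2A and 21 of 23 between the lines, and the members that lost or gained a call have their values in the report. Same-numbered libraries of different lines deviated together with correlations between -0.04 and 0.08 over 14540 genes, so the numbers do not pair the libraries. With the replicate block 17 members were called higher and 7 lower in TC4-2A, 12 and 13 in TL4-2A, and 18 and 6 between the lines. At this depth the standard error of a member's log2 fold change was 0.03 at the lowest in each comparison, and 0.13 to 0.14 at the highest, for NME2. The strand setting and the treatment of reads that match several genes limit NME1, NME2, TYMS, ADSL, DCK and ADA whatever the fit.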
